A study of Mus musculus with 6 samples.

Results

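Antioxidant enzymes remove the superoxide and peroxides that cells make as they respire. Superoxide dismutases (Sod1 in the cytosol, Sod2 in mitochondria) turn superoxide into hydrogen peroxide, and catalase (Cat), glutathione peroxidases (Gpx1, Gpx4) and peroxiredoxins (Prdx1, Prdx2) remove the peroxide. Peroxiredoxins are recharged by thioredoxin (Txn1), which is in turn reduced by thioredoxin reductase (Txnrd1). Ucp2 encodes a carrier of the inner mitochondrial membrane that is often studied beside these enzymes, because uncoupling carriers have been linked to mitochondrial superoxide output. Prdm16 itself has been linked to the control of reactive oxygen species in neural stem cells. These 10 genes were set as a list of symbols, drawn up with earlier results of these data known, and were looked up among the 49315 gene IDs of the count table by their GENCODE M21 symbols. All 10 were found and all 10 passed the filter on low counts.

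RNA was taken from the medial ganglionic eminence (MGE), the ventral forebrain zone where many cortical interneurons are born, of mouse embryos at embryonic day 14. The WT group was Nkx2.1-Cre; Prdm16+/+; Ai14 and the KO group was Nkx2.1-Cre; Prdm16fl/fl; Ai14, so both carried the Cre driver, active in MGE progenitors and their progeny, and the Ai14 reporter. Each group had 3 libraries, and each library was a pool of 3 embryos (6 eminences). The comparison asks which transcripts differ when Prdm16, a zinc finger transcription factor gene, is removed from this lineage. Cells outside the Nkx2.1 lineage in the dissected tissue keep the gene.

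The Prdm16 counts did not separate the groups. WT 1 to 3 had 2572, 1574 and 1743 counts of it, and the KO libraries, in the same order, had 2376, 1870 and 2527 (1.02-fold, 95% interval 0.884 to 1.17, edgeR adjusted p = 0.884). Gene counts include exons that a floxed allele may keep, so each direction below rests on the KO label. Libraries held 33188277 to 55552298 counts. KO 1 stood apart on the second principal component (16.1% of the variance) at -35, against 11.6 and 12.4 for KO 2 and KO 3. Y-linked transcripts summed to 239 CPM (read counts scaled to an equal effective library total) in KO 1 and to 0.362 CPM in KO 3, and Xist was at 1.92 and 1420 CPM in these pools, while the other 4 pools had both. All 10 MGE markers were detected. Of them 1 was higher in KO (Lhx8, 1.41-fold), 3 were lower (Lhx6, Dlx1 and Gad1, at 0.771-fold, 0.835-fold and 0.777-fold) and 6 did not pass, among them Nkx2-1 (647 ± 29.4 CPM in WT and 769 ± 118 CPM in KO, SD, n = 3). Over all tested genes, 9.72% were higher and 10.5% lower at an adjusted p under 0.05. Values of single genes below are CPM with SD over 3 libraries, and adjusted p-values are from edgeR's quasi-likelihood test over 18079 genes.

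The antioxidant response element is the DNA motif bound by NRF2, the main transcriptional activator of antioxidant genes. Its core, TGACNNNGC, was searched on both strands of the RefSeq promoter windows (GRCm38.p6, 250 bases before to 50 after each start). All 10 genes had a window, and 4 of them (40%) held the core in at least 1 window, against 14% of all 27025 genes with a window. Per window the figures were 4 of 15 (26.7%) for these genes and 12.4% over all 32851 windows. The matches are shown so that they can be set beside the values below. Capitals mark the core, which in each case lies on the strand opposite to the gene and so reads GCNNNGTCA. A match is a description of these letters and not a binding site.
Sod1 (chr16:90220661-90220759, + strand, core from 56 bases before the start): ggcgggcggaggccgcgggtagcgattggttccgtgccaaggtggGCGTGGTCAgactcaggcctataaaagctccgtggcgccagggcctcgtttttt
Prdx1 (chr4:116685421-116685519, + strand, core from 133 bases before the start): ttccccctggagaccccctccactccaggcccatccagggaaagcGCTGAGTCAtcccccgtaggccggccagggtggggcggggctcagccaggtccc
Txnrd1 (chr10:82859069-82859167, + strand, window 2 of 3, core from 92 bases before the start): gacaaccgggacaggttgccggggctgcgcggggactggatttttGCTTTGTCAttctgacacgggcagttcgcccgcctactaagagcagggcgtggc
Ucp2 (chr7:100493247-100493345, + strand, core from 66 bases before the start): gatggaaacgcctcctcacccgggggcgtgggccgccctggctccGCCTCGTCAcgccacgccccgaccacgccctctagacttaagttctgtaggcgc
Of these 4 genes, Sod1, Prdx1 and Ucp2 rose in KO and Txnrd1 did not pass. Cat, Gpx1 and Txn1 rose with no such letters in their windows, and Gpx4, Prdx2 and Sod2, also without them, did not pass.

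Of the 10 genes, 6 rose in the pools labelled KO (Ucp2, Txn1, Sod1, Prdx1, Gpx1 and Cat), none fell and 4 did not pass (Gpx4, Prdx2, Sod2 and Txnrd1). The increases were small, from 1.18-fold for Cat to 1.44-fold for Ucp2. Of all tested genes, 9.72% were higher and 10.5% were lower at an adjusted p under 0.05, and the median log2 fold change was 0.25 for the 10 genes and 0 for all genes. At an unadjusted p under 0.05, edgeR had 8 of the 10 higher and 0 lower, where 18.2% and 18.5% of all genes were. DESeq2 at its adjusted p had 8 higher and 0 lower, where 11.2% and 11.4% of all genes were. In 7 of the 10 genes all KO libraries lay above all WT libraries, a pattern seen in 20.3% of tested genes, and in 0 of the 10 did they all lie below (19.6% of tested genes). Since the tissue was measured in bulk, a change in RNA per cell cannot be told apart from a change in the number of cells that carry it.

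**Figure D1:**
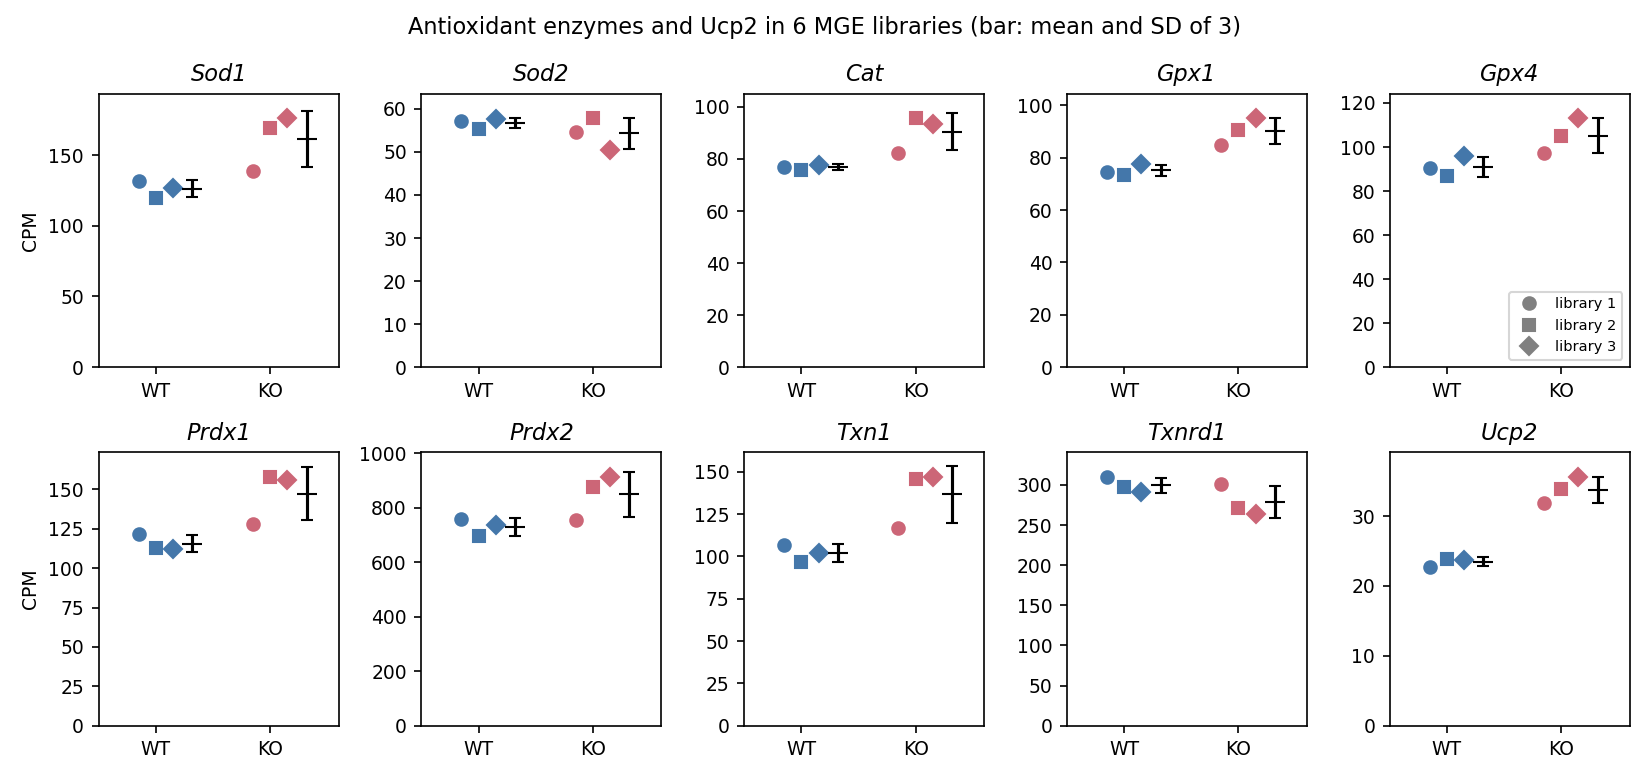
CPM of each of the 10 genes in every library (blue WT, red KO, with marker shapes for libraries 1 to 3), with the mean and SD of each group as a black bar; axes start at 0. Ucp2 shows the widest gap relative to its spread (22.7 to 23.9 CPM in WT, 31.8 to 35.6 in KO), and KO 1 is the lowest KO library in 8 of the 10 panels.

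Ucp2 (chromosome 7, 100493337 to 100502020, GRCm38) had the largest fold and the smallest p of the 10. Levels in WT 1 to 3 were 22.7, 23.9 and 23.7 CPM, while those of KO 1 to 3 were 31.8, 33.8 and 35.6 CPM. The KO libraries lay close together and clear of WT, with KO 1 the lowest of them. The log2 fold change was 0.53 (SE 0.07, 1.44-fold, 95% interval 1.3 to 1.6, edgeR adjusted p = 0.00134). It was the one gene of the 10 that passed in each of the 16 alternative fits, where its log2 fold change ran from 0.49 to 0.58 (largest adjusted p = 0.0117). On the opposite strand Dnajb13 shares 305 exonic bases with Ucp2, and its total over all libraries was 90 counts, against 7364 for Ucp2. No other gene of the uncoupling carrier list passed: Slc25a14 (23 ± 0.924 and 22.7 ± 1.56 CPM) and Slc25a27 (98 ± 5.15 and 98.1 ± 1.26 CPM), both brain carriers, had folds of 0.986 and 1, Slc25a30 had 0.868, and Ucp1, the thermogenic carrier of brown fat, was at 0.182 ± 0.122 and 0.336 ± 0.079 CPM. Ucp3, the neighbour of Ucp2, was too low to be tested.

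The genes most like Ucp2 were found by the smallest root mean square difference of centred log2 CPM over the 6 libraries, among 10140 genes of at least 10 CPM. They were Hes6 (difference 0.0261), a neurogenic helix-loop-helix gene, Fign (0.0343), Pgpep1 (0.0351), Hint2 (0.0356), which encodes a mitochondrial protein, and E2f6 (0.0383), an E2F family repressor gene. Hes6 went from 119 ± 4.5 to 167 ± 12.4 CPM (1.4-fold) and E2f6 from 52.3 ± 0.838 to 72.7 ± 1.89 CPM (1.39-fold). These points share libraries and depth, and the likeness is a description. The rule picks genes whose values move as those of Ucp2 do, so folds near that of Ucp2 follow from it.

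Within the thioredoxin and peroxiredoxin system, Txn1 and Prdx1 rose while the reductase gene did not. Txn1 (chromosome 4, 57943373 to 57956411) had 107, 96.5 and 102 CPM in WT and 117, 146 and 147 CPM in KO. KO 2 and KO 3 were well above WT, and KO 1 lay between these and the WT libraries. Its log2 fold change was 0.42 (SE 0.09, 1.34-fold, 95% interval 1.17 to 1.54, edgeR adjusted p = 0.012). Prdx1 (chromosome 4, 116685544 to 116700822), a cytosolic peroxiredoxin gene, had 122, 113 and 112 CPM in WT and 128, 158 and 156 CPM in KO. KO 1 exceeded the highest WT library by little, and the other KO libraries did so clearly. The log2 fold change of Prdx1 was 0.35 (SE 0.08, 1.27-fold, 95% interval 1.12 to 1.45, edgeR adjusted p = 0.0204).

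Prdx2 (chromosome 8, 84969587 to 84974834), another cytosolic peroxiredoxin gene that is also very abundant in red blood cells, was the most highly counted of the 10. It had 761, 695 and 736 CPM in WT and 757, 878 and 914 CPM in KO, so the groups overlapped through KO 1 and WT 1. Its fold was 1.16 (95% interval 1.03 to 1.32, edgeR adjusted p = 0.0819), which did not pass. Without KO 1 it passed (log2 fold change 0.3, edgeR adjusted p = 0.000415). Junb and Rnaseh2a, on the opposite strand, share 173 and 177 exonic bases with it, with 1064 and 9635 counts in all against 202575 for Prdx2. Txnrd1 (chromosome 10, 82833951 to 82897712) had 310, 297 and 291 CPM in WT and 301, 271 and 264 CPM in KO. Here KO 1 sat inside the WT range and the other KO libraries below it (0.932-fold, 95% interval 0.842 to 1.03, edgeR adjusted p = 0.281). Without KO 1 Txnrd1 was called lower (log2 fold change -0.16, edgeR adjusted p = 0.0148).

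The superoxide dismutase genes gave unlike values. Sod1 (chromosome 16, 90220754 to 90226329), the copper and zinc enzyme of the cytosol, had 132, 120 and 127 CPM in WT and 139, 169 and 176 CPM in KO. All KO libraries exceeded WT, with KO 1 nearest to it. The log2 fold change was 0.35 (SE 0.09, 1.28-fold, 95% interval 1.12 to 1.46, edgeR adjusted p = 0.0211). Sod2 (chromosome 17, 13006846 to 13040063), the manganese enzyme of mitochondria, had 57.1, 55.4 and 57.6 CPM in WT and 54.6, 57.8 and 50.5 CPM in KO. The groups overlapped, at 0.956-fold (95% interval 0.867 to 1.05, edgeR adjusted p = 0.495). Of the other genes of this kind, Ccs, which loads copper onto the Sod1 protein, had 16.2 ± 1.15 and 18.1 ± 1.19 CPM and did not pass. Of the 50-base stretches of Sod2 transcripts, 21% were shared with other genes, so part of the Sod2 reads may have been discarded or misplaced. Rps6ka2 (13467 counts in all, against 14010 for Sod2) shared 16% of them.

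Among the peroxide-removing enzymes outside the peroxiredoxins, Gpx1 and Cat rose. Gpx1 (chromosome 9, 108338903 to 108340343), a selenoprotein of cytosol and mitochondria, had 74.4, 73.3 and 77.6 CPM in WT and 85, 90.4 and 95 CPM in KO. The groups did not overlap (log2 fold change 0.26, SE 0.06, 1.2-fold, 95% interval 1.1 to 1.32, edgeR adjusted p = 0.016). Cat (chromosome 2, 103453849 to 103485160), the peroxisomal catalase gene, had 77.1, 75.8 and 77.8 CPM in WT and 82.4, 95.6 and 93.5 CPM in KO. It too had no overlap, at a log2 fold change of 0.23 (SE 0.06, 1.18-fold, 95% interval 1.06 to 1.3, edgeR adjusted p = 0.0327). Gpx4 (chromosome 10, 80047166 to 80056439), the selenoprotein that removes lipid peroxides, had 90.4, 86.8 and 95.9 CPM in WT and 97.1, 105 and 113 CPM in KO. Although each KO library was above each WT library, it missed the threshold (1.15-fold, 95% interval 1.04 to 1.28, edgeR adjusted p = 0.0606), and it passed without KO 1 (adjusted p = 0.00178). Its value is uncertain, because the transcribed pseudogene Gpx4-ps2 (1090 counts against 25075) shares 34.7% of the 50-base stretches of Gpx4.

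**Figure D2:**
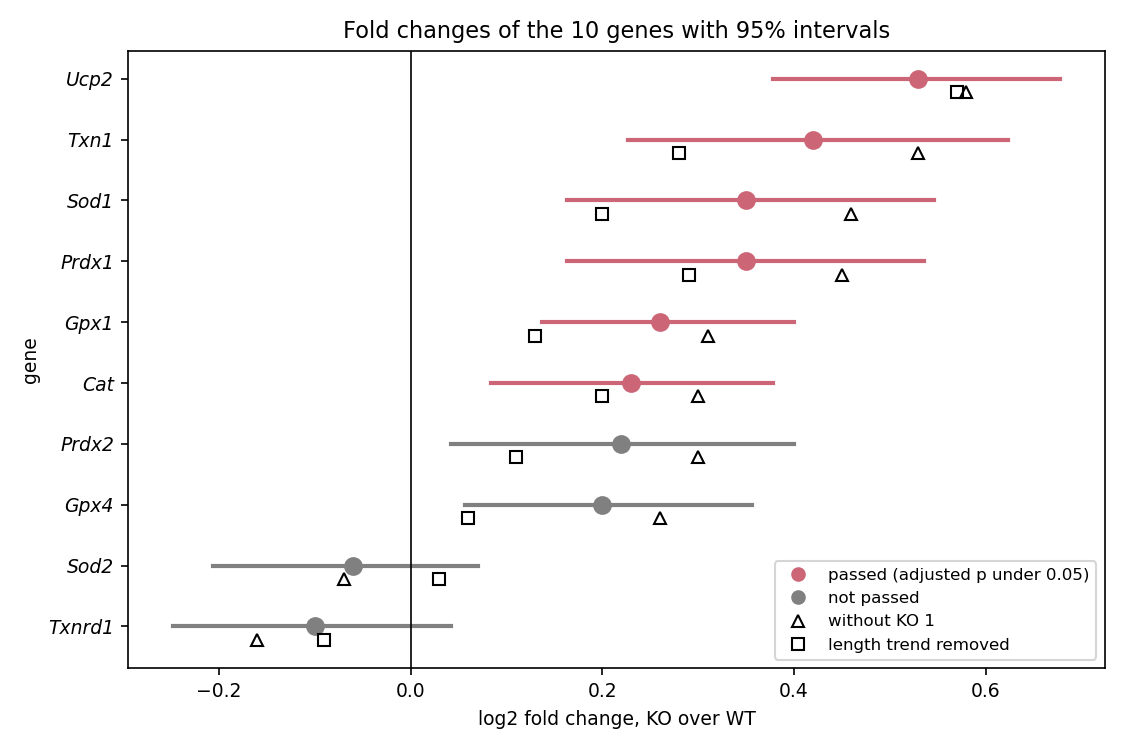
Log2 fold change of KO over WT for each gene (circle) with its 95% interval (line), red where the adjusted p is under 0.05, and below it the value without KO 1 (triangle) and with each library's trend on transcript length removed (square). Without KO 1 the values of the 8 genes on the right move up, and removing the length trend moves all of these but Ucp2 down.

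The count of calls depended on the libraries. Without KO 1 there were 8 of 10 genes higher and 1 lower (Txnrd1), in a fit that called 20.6% of all genes higher and 20.9% lower. Without WT 1 there were 4 of the 10 higher (4.44% of all genes), without WT 2 there was 1 (2.59%) and without WT 3 there was 1 (2.49%). Dropping KO 2 left 1 of the 10 (3.12%) and dropping KO 3 left 2 (3.31%). In those 5 fits the log2 fold changes of the 6 genes lay between 0.2 and 0.54, and Ucp2 was called in each. KO 1 was the lowest KO library in 8 of the 10 genes, and likewise in 1338 of the 1758 genes called higher (76.1%).

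Fold changes over all genes differed with transcript length. The median log2 fold change was 0.15 for tested genes with a principal transcript under 1 kb, 0.13 from 1 to 2 kb, 0.02 from 2 to 4 kb and -0.1 above 4 kb. In these classes 13.5%, 16.4%, 9.68% and 5.02% of genes were called higher. The principal transcripts of the 10 genes ranged from 641 bases (Sod1) to 5861 bases (Sod2). Txnrd1 (3531 bases) and Sod2, with folds under 1, were among the longest, whereas Ucp2 (3988 bases) was long and rose. Mitochondrially encoded transcripts made up 1.13% of counts in KO 1, 1.45% in KO 2 and 1.46% in KO 3, against 1.15% to 1.16% in WT. In a fit added after seeing the data, which removed each library's trend on length, 5 of the 10 were called higher and Gpx1 lost its call (log2 fold change 0.13, edgeR adjusted p = 0.0725), against 9.52% of all genes higher. The log2 fold change became 0.28 for Txn1, 0.2 for Sod1, 0.29 for Prdx1, 0.2 for Cat and 0.57 for Ucp2, and that of Sod2, which was not called in either fit, was 0.03. The part of transcript length in the calls beyond this fit was not tested.

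**Figure D3:**
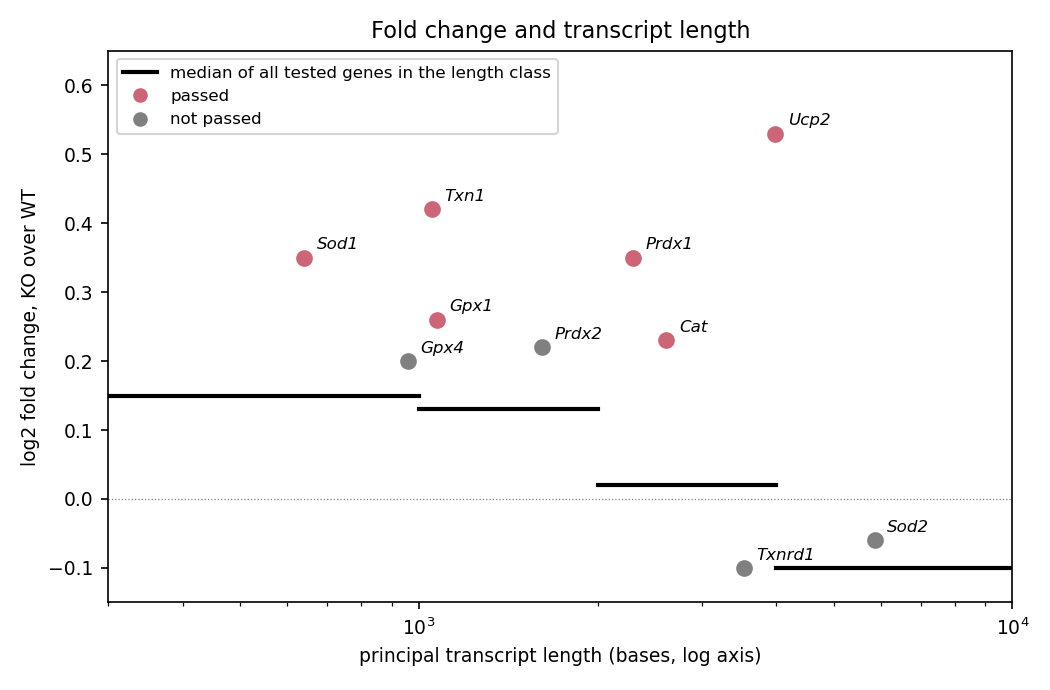
Log2 fold change of KO over WT against the length of the longest principal transcript (log axis) for the 10 genes, red where the adjusted p is under 0.05, with the median of all tested genes in each length class as a black line. The medians fall from 0.15 for the shortest class to -0.1 for the longest, and Ucp2, at 3988 bases and 0.53, lies far above the median of its class.

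Levels within a group are compared per kilobase of exon, since longer transcripts collect more reads. In WT, Prdx2 was at 240 ± 11 CPM per kb of exonic sequence and Txn1 at 96.9 ± 5.23 CPM per kb. Gpx4 (52.8 ± 2.66) and Gpx1 (52.1 ± 1.57) came next in CPM per kb and did not differ beyond their spread. They were followed in CPM per kb by Txnrd1 (42.2 ± 1.36), Prdx1 (38.1 ± 1.81), Sod1 (31.7 ± 1.49) and Cat (29.4 ± 0.389). Sod2 (5.67 ± 0.113) and Ucp2 (3.35 ± 0.0949) were the lowest. The order depends on the length used: over the principal transcript alone, Sod1 stood second at 197 ± 9.26 CPM per kb, after Prdx2 at 453 ± 20.8, because its annotated exons total 3970 bases. Prdx2 stayed the highest and Ucp2 the lowest under both lengths. In KO the exonic values were 279 CPM per kb for Prdx2, 130 for Txn1 and 4.83 for Ucp2.

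Other redox genes were counted in 7 lists of 72 genes, of which 69 were tested. Of these 15 (21.7%) rose, 5 (7.25%) fell and 49 did not pass, beside 9.72% and 10.5% of all genes, with a median log2 fold change of 0.13. Without KO 1 there were 26 higher and 6 lower, in a fit that called 20.6% of all genes higher and 20.9% lower. Leaving out any other library gave 2 to 6 higher and 2 to 3 lower, where 2.49% to 4.44% of all genes were higher and 3.9% to 6.31% lower. Of the genes named from these lists, Prdx4, Glrx3, Gstm1 and Selenop were called in each of the 16 alternative fits, and the other called genes that the naming rule picked lost their call in 2 to 8 of them. Among further dismutase, peroxidase and peroxiredoxin genes 4 of 9 tested members were higher and 1 was lower. Prdx4, of the endoplasmic reticulum, went from 28.7 ± 0.713 to 38.5 ± 2.71 CPM (1.34-fold, edgeR adjusted p = 0.00475) and Gpx8, also of that compartment, from 10.5 ± 0.953 to 16.7 ± 3.13 CPM (1.58-fold). Gpx3, a secreted peroxidase gene, rose 1.34-fold, and Prdx3, of mitochondria, rose 1.27-fold to 34.8 ± 4.22 CPM. The member that fell was Sod3, the secreted superoxide dismutase gene, named after its value was seen, from 0.725 ± 0.0361 to 0.267 ± 0.184 CPM (edgeR adjusted p = 0.047).

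In the thioredoxin and glutaredoxin list 3 of 12 rose and 9 did not pass, where 9.72% of all tested genes rose and 10.5% fell. Glrx3 went from 119 ± 4.13 to 149 ± 7.27 CPM (1.25-fold, edgeR adjusted p = 0.00621) and Glrx5 rose 1.3-fold; both encode glutaredoxins of iron-sulfur cluster metabolism. Txnl1, a thioredoxin-like gene, rose 1.2-fold. Txnip, which encodes an inhibitor of thioredoxin, had 62 ± 2.31 and 52.1 ± 5.61 CPM and just missed the threshold (0.842-fold, edgeR adjusted p = 0.0504). In the glutathione list 3 of 12 rose and 1 fell. Slc7a11, the cystine transporter gene, had the largest change of all these genes but an uneven one. It had 2.19, 1.76 and 1.85 CPM in WT and 44.6, 20.5 and 13.6 CPM in KO (edgeR adjusted p = 0.0105), so that KO 1 was its highest library, unlike in most of the 10 genes. Gstm5 rose 1.18-fold and Gsta4 1.46-fold, while Gstm1 fell from 17.8 ± 0.282 to 12.4 ± 1.55 CPM (edgeR adjusted p = 0.00832); all 3 encode glutathione transferases.

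The NRF2 list did not move one way, with 3 of 12 higher and 2 lower. Of all tested genes, 9.72% were higher and 10.5% lower. Taldo1, of the pentose phosphate pathway, rose 1.22-fold and Ftl1, the ferritin light chain gene, 1.26-fold to 1290 ± 125 CPM. Mafg, which encodes a small MAF partner of NRF2, fell from 105 ± 2.24 to 88.5 ± 3.16 CPM (edgeR adjusted p = 0.0142), and Nqo1, a classical NRF2 target, fell from 1.96 ± 0.223 to 1.32 ± 0.14 CPM (edgeR adjusted p = 0.0396). The call of Nqo1 was lost in 8 of the 16 alternative fits, among them DESeq2 (adjusted p = 0.0798) and the fit with no filter (adjusted p = 0.0504). Named after their values were seen, Nfe2l2, which encodes NRF2, had 12.7 ± 0.89 and 13.5 ± 1.81 CPM (edgeR adjusted p = 0.593) and Hmox1, another classical target, 7.51 ± 0.457 and 7.18 ± 1.09 CPM (edgeR adjusted p = 0.753). Of 12 genes of selenoproteins or their synthesis 2 rose and 1 fell. Selenop, which encodes a selenium carrier, fell from 21.7 ± 0.775 to 11.6 ± 0.759 CPM (edgeR adjusted p = 0.00021), while Selenof rose 1.18-fold and Selenoh 1.15-fold; Sephs2, of selenocysteine synthesis, had 18.3 ± 1.3 and 21.4 ± 0.584 CPM and did not pass. In the lists of uncoupling carriers and NADPH oxidases, 0 of 4 and 0 of 8 tested genes passed edgeR at adjusted p under 0.05, with 1 gene in each at an unadjusted p under 0.05, and DESeq2 called 0. Lists this short cannot set 0 calls apart from the shares of all genes.

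**Figure D4:**
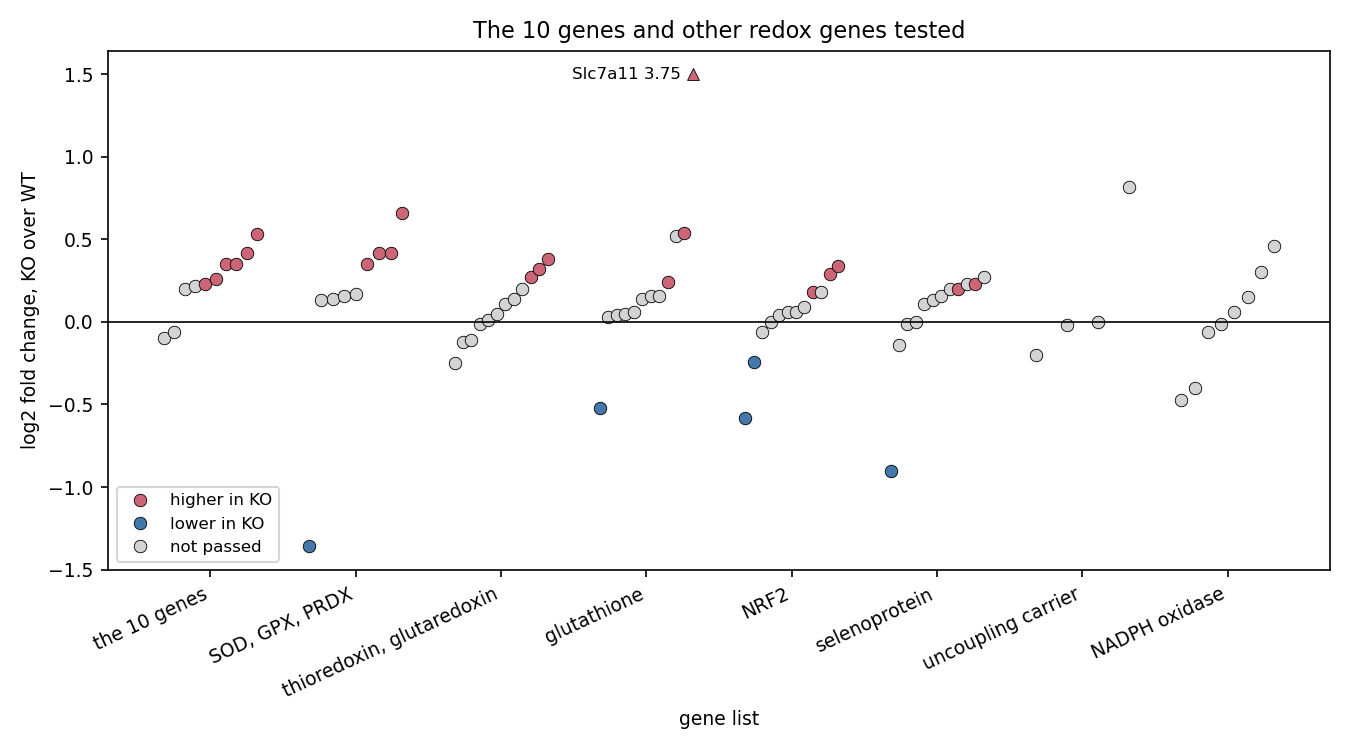
Log2 fold change of KO over WT for the 10 genes and for each tested gene of 7 other redox lists, red where higher and blue where lower at an adjusted p under 0.05, grey where not passed. Slc7a11 (3.75) is drawn as a triangle at the top edge; the carrier and oxidase lists hold no coloured point.

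Markers of cell types that could carry these transcripts were measured in the same libraries. The counts of calls stand beside 9.72% of all tested genes higher and 10.5% lower. Of 11 red blood cell markers tested 5 rose, 2 fell and 4 did not pass, and their summed level was 662 to 724 CPM in WT and 1010 to 1610 CPM in KO, lowest in KO 1. Radial glia markers summed to 2270 to 2420 CPM in WT and 3190 to 3590 CPM in KO, with 9 of 11 higher and 1 lower, and KO 1 again lowest of the KO libraries. Postmitotic neuron markers summed to 6150 to 6240 CPM in WT and 5310 to 5680 CPM in KO, with 5 of 11 lower. Microglia and macrophage markers, of cells rich in Ucp2, summed to 68.8 to 73 CPM in WT and 51 to 58.1 CPM in KO. Of these 11 markers 4 were lower and 7 did not pass. Endothelial markers summed to 229 to 232 CPM in WT and 172 to 207 CPM in KO, with 3 of 10 lower. None of the markers found in the table was at 0 in all libraries. The part of these cell types in the values of the 10 genes was not tested.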

How the data were processed

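Total RNA from MGE pools was sequenced, and the values used are raw counts for each Ensembl gene, as the authors deposited them for 6 libraries. The submitters' processing notes name Trimmomatic 0.36 and STAR 2.5.2b, then Subread 1.5.2 with featureCounts, DESeq2, and GRCm38 as the build. Which annotation release and strand setting were used is not stated there, so reads of overlapping genes on opposite strands cannot be told apart. A second deposited table of scaled values was not used. Symbols and lengths came from GENCODE M21 (49056 of 49315 IDs matched), and promoter windows from RefSeq (GRCm38.p6).

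Genes were filtered with filterByExpr (minimum count 10, minimum total 15), scaled with TMM and tested with edgeR 4.0.16 (robust quasi-likelihood, R 4.3.3), adjusted by Benjamini-Hochberg over all 18079 genes and called at 0.05. The standard error is the log2 fold change over the square root of F, and CPM use TMM-scaled totals. The biological coefficient of variation was 9.52%. The procedure was tested on simulated data. Changed genes there had larger folds than any of the 10 genes, all genes shared the same spread, and no library stood apart as KO 1 did. That test therefore does not cover the calls given here. DESeq2 1.42.0, limma 3.58.1 (voom), other scalings and filters, a replicate block and each library left out were alternatives, with the length trend and principal transcript lengths added after seeing the data. Pools are separate by the labels. The 10 genes and all lists were chosen with earlier results of these data known. All 10 genes are named, with up to 4 genes of smallest p per other redox list, of which 1 is not reported here; Ahsp was not matched.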

Additional observations from a re-analysis of the deposited data

How the results depend on the processing

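Over 16 alternative fits, the 10 genes gave 160 fold changes: 128 kept direction and side of the threshold or were never called, 25 lost a call, 7 gained one and 0 reversed. Other scalings, limma voom, the stricter filter and no robust spread each called 6 of the 10 genes higher, and DESeq2 and no filter called 8. These fits called from 7.16% (no filter) to 11.4% (stricter filter) of all genes higher. The replicate block called 3 of the 10 higher (Gpx1, Txn1, Ucp2), and of the other redox genes 7 higher and 3 lower. With the block, 4.77% of all genes were higher and 6.74% lower. No pairing was assumed, since WT and KO libraries of the same number had deviations correlated by -0.08, -0.12 and 0.03. Leaving out a library gave 1 to 8 of the 10 higher and 0 to 1 lower, and 2 to 26 other redox genes higher and 2 to 6 lower. Each such fit has fewer samples. Of all genes, 2.49% to 20.6% were higher and 3.9% to 20.9% lower in these fits, with the most without KO 1. All genes called fell too with the block, to 862 higher and 1219 lower from 1758 and 1897. Each of the 10 genes had at least 800 counts in each library. Levels per kilobase moved with the length used for all of the 10 genes but Cat and Txn1.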
